A study of Mus musculus with 3 samples.

Results

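The enzymes described here turn ceramide into sphingomyelin, take sphingomyelin apart again, make ceramide 1-phosphate, and make or remove sphingosine 1-phosphate (S1P). They were chosen by gene symbol as 10 named enzyme genes: the sphingomyelin synthases Sgms1 and Sgms2, the sphingomyelinases Smpd1, Smpd2 and Smpd4, the ceramide kinase Cerk, the sphingosine kinases Sphk1 and Sphk2, the S1P lyase Sgpl1 and the S1P phosphatase Sgpp1. All 10 had a row among the 17285 genes of the table, and all 10 had reads. RNA was sequenced from the mouse melanoma line B16 after stable integration of an empty expression vector. The 3 libraries are Mock replicates 1, 2 and 3 of that one line and form a single group, so no conditions could be compared. The labels do not say whether the replicates were separate cultures, so the spread between these libraries may be technical. No p-value given here covers variation beyond these libraries.

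Ceramide stands at a branch point of sphingolipid metabolism. Sphingomyelin synthases use it to make the main sphingolipid of the plasma membrane, glucosylceramide synthase (Ugcg) uses it to start the ganglioside series that the study concerns, and ceramide kinase phosphorylates it. Ceramidases release sphingosine from it, which sphingosine kinases turn into S1P, a ligand of cell surface receptors. S1P is then either dephosphorylated and reused or cleaved by the lyase, the exit from the pathway.

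The libraries held 9328096, 9456527 and 9438905 counts, and 1 read was worth 0.106 CPM (reads of a gene per 1000000 reads of its library, with library sizes scaled by TMM factors). The 10 enzymes together took 0.105%, 0.104% and 0.105% of the counts in replicates 1, 2 and 3. By markers, 8 of 8 pigment cell genes lay above 1 CPM, from Tyr at 6.56 ± 0.831 CPM to Tyrp1 at 12337 ± 399 CPM (SD, n = 3). Of 11 measured markers of leukocytes, endothelium, fibroblasts, epithelium and neurons, none lay above 1 CPM, 9 had no count, and the highest, Pdgfra, reached 0.177 ± 0.221 CPM. For comparison, 74.3% of all genes with a count were called above 1 CPM in the test given below.

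The sequence just before the transcription start is shown for the enzymes with the most and the fewest reads, Cerk and Sgms2, because they mark the ends of the range described below. Both run 5′ to 3′ on the minus strand of GRCm38.p6 and end at the base before the start (RefSeq); Sgms2 has 6 listed starts, of which the most upstream is shown. Capitals mark an E-box core, CATGTG, here in its reverse complement, which only the Cerk stretch holds. Windows around other starts of Sgms2, described below, hold CACGTG or CATGTG, and 14.2% of the windows around all listed starts hold CATGTG. Whether such a core bears on the level of either gene was not tested. E-box cores of the forms CACGTG and CATGTG are known to be bound by MITF, a transcription factor of pigment cells.
Cerk, chr15:86186142-86186391: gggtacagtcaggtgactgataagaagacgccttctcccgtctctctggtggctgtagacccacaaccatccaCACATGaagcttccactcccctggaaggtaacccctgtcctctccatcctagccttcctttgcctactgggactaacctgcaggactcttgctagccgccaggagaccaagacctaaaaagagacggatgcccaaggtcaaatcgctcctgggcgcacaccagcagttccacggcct
Sgms2, chr3:131491444-131491693: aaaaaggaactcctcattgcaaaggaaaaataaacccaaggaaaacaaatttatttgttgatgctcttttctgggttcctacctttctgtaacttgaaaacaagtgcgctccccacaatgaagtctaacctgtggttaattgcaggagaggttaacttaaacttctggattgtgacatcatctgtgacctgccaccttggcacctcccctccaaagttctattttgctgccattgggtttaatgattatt

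A set of 3 motifs was searched on both strands in the 23 start windows that RefSeq lists for the 10 genes, each from 250 bases before to 50 after a start: the E-box cores CACGTG and CATGTG, and TGACGTCA, the palindrome known as the cAMP response element. CACGTG stood in windows of 3 genes, Smpd2 (194 bases before the start), 2 overlapping starts of Sphk1 (95 and 102 bases before) and 1 start of Sgms2 (117 bases before). CATGTG stood in windows of Cerk (177 bases before), Sphk2 (from base 10 of the transcript) and another start of Sgms2 (from base 36). TGACGTCA stood in 1 window, of Sphk2, from base 4 of the transcript, and shares 2 bases with the E-box core there. Counted by window, 4 of the 23 held CACGTG, 3 CATGTG and 1 TGACGTCA, and the overlapping Sphk1 windows hold the same CACGTG. Of all 32851 windows of the same length, 7.15% held CACGTG, 14.2% CATGTG and 1.79% TGACGTCA. Whether the 10 genes hold more of these motifs than other genes was not tested. For Smpd2, Sphk1 and Sphk2 the 30 bases around the match are shown, with the motifs in capitals, on the minus strand for Smpd2 and Sphk2 and the plus strand for Sphk1. In the GENCODE annotation the Smpd2 stretch overlaps an exon of another gene, Ppil6, and the Sphk2 stretch overlaps exons of Rpl18 and of Sphk2 itself. A match describes these letters and is not a measured binding site.
Smpd2, chr10:41490514-41490543: cggcaaccgCACGTGacatgctgggggctt
Sphk1, chr11:116532337-116532366: catacaccggggCACGTGtgcattttcacc
Sphk2, chr7:45717978-45718007: tgcacgggTGACGTCACATGagcgcgacgc
The windows also differed in composition. The Cerk window held 11 CpG pairs at 58.3% G and C, and the Sgms2 window shown held 1 at 39.0%, while 2 further starts of Sgms2, at 62.7% and 77.7%, held 18 and 44. Sgms1 reached 51 CpG pairs at 1 of its 4 starts, against a median of 7 over all windows. The start used in these cells was not measured.

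All 10 enzymes were transcribed above 1 CPM, and Cerk was the highest and Sgms2 the lowest both in CPM and in CPM per kilobase of exon. The test was edgeR's quasi-likelihood F test of each gene against 1 CPM, fitted and adjusted over the 14408 genes with a count, of which 74.3% were called above and 20.2% below. A call above 1 CPM is therefore the common state of a gene in these cells, and in RNA from whole cultures fewer expressing cells and less RNA per cell cannot be told apart. The largest adjusted p among the 10 was that of Sgms2, at 2.25e-07. By mean CPM, Cerk stood at percentile 98.4 of all genes with a count, Sgpl1 at 90.5, Smpd1 at 84.9 and Smpd4 at 80.6. Sphk1 stood at percentile 63.8, Sphk2 at 59.9, Sgms1 at 54.2, Sgpp1 at 48.7, Smpd2 at 45.4 and Sgms2 at 31.6. These percentiles take no account of gene length. Per kilobase of merged exon, Cerk stood at percentile 97.2 of all genes, Smpd1 at 88.3, Sgpl1 at 84.5 and Smpd4 at 64.9. By that measure Sphk1 stood at 63.4, Sphk2 at 62.9, Smpd2 at 46.5, Sgpp1 at 45.6, Sgms1 at 39.6 and Sgms2 at 27.99. The median of the 10 was 40.5 CPM, against 23.6 CPM over all genes with a count.

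**Figure D1:**
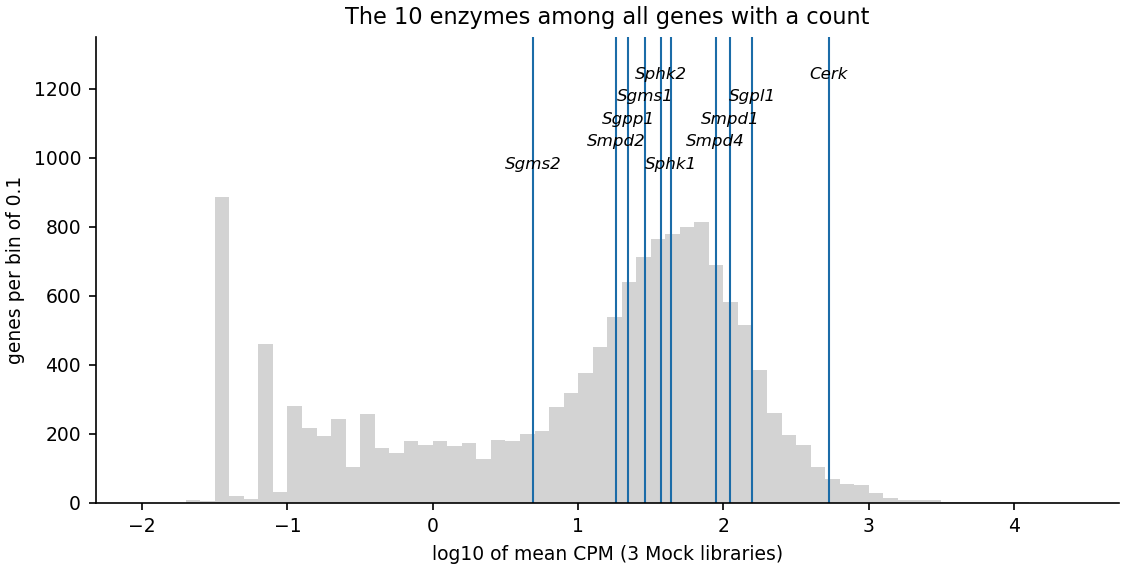
Histogram of the mean CPM of the 3 Mock libraries for all 14408 genes with a count (log10 scale, bins of 0.1), with a vertical line for each of the 10 enzymes. Cerk lies in the upper tail at percentile 98.4 and Sgms2 to the left of the main peak at percentile 31.6.

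The sphingomyelin synthases were unequal. Sgms1 (ENSMUSG00000040451, chromosome 19, 32122727 to 32389714, minus strand, GRCm38), the Golgi enzyme that moves phosphocholine from phosphatidylcholine to ceramide, had 30.02, 27.6 and 28.7 CPM in replicates 1, 2 and 3, from 281, 260 and 271 reads. Sgms2 (ENSMUSG00000050931, chromosome 3, 131318985 to 131491411, minus strand), which carries out the same reaction mainly at the plasma membrane, had 4.81, 5.19 and 4.67 CPM, from 45, 49 and 44 reads. The ranges did not overlap, and Sgms1 was higher in 3 of 3 libraries. Sgms2 supplied 14.5% of the reads of the pair (138 of 950, exact Clopper-Pearson 95% interval 12.3% to 16.9%, counting error only), at 13.8%, 15.9% and 14.0% in replicates 1, 2 and 3. Per kilobase of merged exon its share was 22.3%. Within libraries the log2 ratio of Sgms1 to Sgms2 per kilobase of merged exon was 1.78 ± 0.13 (SD, n = 3), a ratio of 3.45, and the counting interval of 1.53 to 2.07 was wider than the interval from limma. With the length of the principal transcript of each gene the ratio was 8.39, because the merged exons of Sgms1 (10546 bases) are far longer than its principal transcript (4036 bases).

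Among the sphingomyelinases the lysosomal enzyme was the most abundant. Smpd1 (ENSMUSG00000037049, chromosome 7, 105554360 to 105558389, plus strand) encodes acid sphingomyelinase, whose loss causes Niemann-Pick disease in humans, and had 113, 104 and 116 CPM in replicates 1, 2 and 3. Smpd4 (ENSMUSG00000005899, chromosome 16, 17619354 to 17644828, plus strand), a neutral sphingomyelinase of the endoplasmic reticulum and nuclear envelope, had 89.3, 88.9 and 87.1 CPM. Smpd2 (ENSMUSG00000019822, chromosome 10, 41485642 to 41490369, minus strand), another neutral sphingomyelinase, had 19.98, 17.8 and 16.9 CPM. The ranges of the 3 genes did not overlap, and their order was the same in each library. Per kilobase of merged exon, Smpd1 exceeded Smpd4 by a log2 ratio of 1.76 ± 0.09 (SD, n = 3) and Smpd4 exceeded Smpd2 by 1.26 ± 0.11, which are ratios of 3.39 and 2.40. With principal transcripts these ratios were 2.40 and 1.68. Exons of Smpd2 share 905 bases, 20.3% of its merged exon length, with Mical1 on the opposite strand in the GENCODE annotation, and Mical1 stood at 53.0 ± 0.878 CPM. The RefSeq spans of those genes do not overlap. Neither the annotation behind the counts nor their strand setting is known, so the part of Mical1 reads in the Smpd2 value was not tested.

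Cerk (ENSMUSG00000035891, chromosome 15, 86139128 to 86186141, minus strand), which makes ceramide 1-phosphate, was the most abundant of the 10 enzymes in every library. It had 525, 533 and 532 CPM in replicates 1, 2 and 3, from 4913, 5027 and 5020 reads. Its highest and lowest libraries differed by a factor of 1.02, and its coefficient of variation of 0.842% was below the 1.42% that counting error gives for a gene of this depth. Per kilobase of merged exon it stood at percentile 97.2 of all genes. It exceeded Ugcg, the enzyme of the competing glucosylceramide branch, which had 101, 104 and 96.3 CPM, by a log2 ratio of 2.52 ± 0.06 per kilobase (SD, n = 3), a ratio of 5.72. It exceeded Sgms1 by 5.33 ± 0.07, a ratio of 40.3. With principal transcripts the ratios were 4.69 to Ugcg and 16.4 to Sgms1. In the fit of ratios to Ugcg, 19.2% of all genes stood above Ugcg by limma at an adjusted p under 0.05. Ugcg itself exceeded Sgms1 per kilobase by 2.82 ± 0.09 on the log2 scale and Sgms2 by 4.60 ± 0.04, which are ratios of 7.05 and 24.3, or 3.50 and 29.4 with principal transcripts. Thus the order Cerk, Ugcg, Sgms1, Sgms2 among these ceramide-using enzymes held for reads and for each of the 3 lengths. Samd8, a relative of the synthases described below, was not placed in this order. It stood above Sgms1 for reads (65.2 against 28.8 CPM) and for each length (8.53 against 2.73 CPM per kilobase of merged exon).

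**Figure D2:**
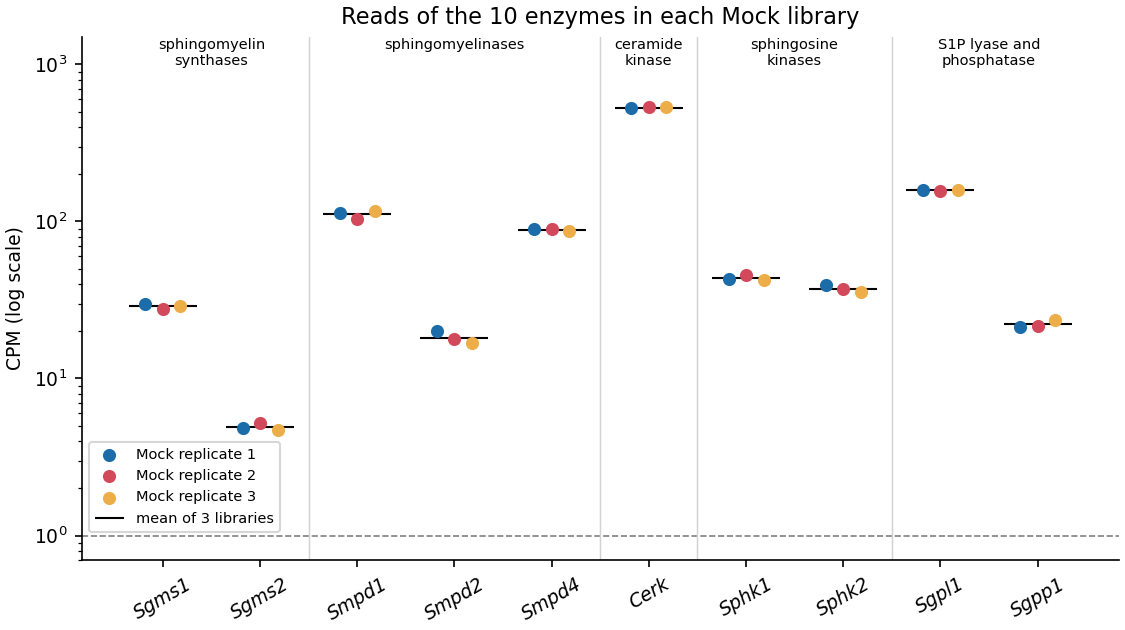
CPM (log axis) of each enzyme in Mock replicates 1, 2 and 3 (coloured points), with the mean of the 3 libraries as a black line, grouped by the reaction of the enzyme; the dashed line marks 1 CPM. Points of one gene lie close together, from Sgms2 at 4.67 to 5.19 CPM up to Cerk at 525 to 533 CPM.

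Both sphingosine kinases were transcribed, and whether they could be told apart rested on the length used. Sphk1 (ENSMUSG00000061878, chromosome 11, 116530925 to 116536674, plus strand), the mainly cytosolic kinase, had 43.2, 45.9 and 42.2 CPM in replicates 1, 2 and 3. Sphk2 (ENSMUSG00000057342, chromosome 7, 45709467 to 45718002, minus strand), the kinase found in nuclei and mitochondria as well, had 39.4, 37.2 and 35.3 CPM, from fractional counts that round to 369, 351 and 333. In reads the ranges did not overlap, and Sphk1 supplied 54.0% of the reads of the pair (1235 of 2288, exact interval 51.9% to 56.0%). Per kilobase of merged exon the share was 50.5% and the pair could not be told apart, with a log2 ratio of Sphk1 to Sphk2 of 0.03 ± 0.09 (SD, n = 3; limma adjusted p = 0.665, 95% interval -0.11 to 0.17). With principal transcripts Sphk1 stood 2.72-fold above Sphk2, since its principal transcript has 1532 bases and its merged exons 4774. Sphk2 shares 373 bases of exon with Rpl18 and 539 with Dbp, both on the opposite strand, which are 8.97% and 13.0% of its merged exons. Unlike those of Smpd2 and Mical1, the RefSeq spans overlap too, by 2536 bases with Rpl18 and 741 with Dbp. Rpl18 stood at 512 ± 16.1 CPM and Dbp at 11.6 ± 0.498 CPM, and the part of their reads in the Sphk2 value was not tested.

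Of the lyase Sgpl1 and the phosphatase Sgpp1, which both remove S1P, the lyase was the more abundant. Sgpl1 (ENSMUSG00000020097, chromosome 10, 61098642 to 61147703, minus strand) cleaves S1P irreversibly in the endoplasmic reticulum and had 158, 156 and 160 CPM in replicates 1, 2 and 3. Sgpp1 (ENSMUSG00000021054, chromosome 12, 75714249 to 75735729, minus strand), which returns S1P to sphingosine, had 21.2, 21.7 and 23.4 CPM. The ranges did not overlap. Per kilobase of merged exon the log2 ratio of Sgpl1 to Sgpp1 was 2.71 ± 0.07 (SD, n = 3), a ratio of 6.56, or 5.78 with principal transcripts. Sgpl1 also exceeded both kinases, by ratios of 2.80 to Sphk1 and 2.86 to Sphk2 per kilobase of merged exon. The first of these was 1.35 with principal transcripts and the second 3.66.

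The levels of different genes can be ranked only per kilobase. By merged exon length the order was Cerk at 110.2 ± 0.928 CPM per kilobase, Smpd1 at 33.3 ± 1.77, Sgpl1 at 25.7 ± 0.302, Smpd4 at 9.79 ± 0.133, Sphk1 at 9.17 ± 0.400, Sphk2 at 8.97 ± 0.490, Smpd2 at 4.08 ± 0.358, Sgpp1 at 3.91 ± 0.210, Sgms1 at 2.73 ± 0.117 and Sgms2 at 0.785 ± 0.0438 CPM per kilobase (SD, n = 3). Each neighbour was set against the next by limma on the log2 ratio within a library, in a fit over all genes with a length. The p-values of these fits rest mostly on a trend of the spread over all genes, not on the 3 values of the gene itself: the prior degrees of freedom were infinite in 8 of 11 fits and 12.6 to 23.4 in the other 3. Of 9 neighbouring pairs 6 were told apart, with adjusted p of at most 1.05e-10, and 3 were not. Of all 45 pairs 42 were told apart, the closest of them being Smpd4 over Sphk2 with a log2 ratio per kilobase of 0.13 (95% interval 0.0031 to 0.25, limma adjusted p = 0.0466). That call was lost without replicate 2 or 3 (limma adjusted p = 0.314 and 0.131) and among genes with at least 10 counts (0.0539). The share of all genes told apart from a member in either direction was not counted. The numbers of pairs told apart therefore do not set these enzymes apart from other genes.

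The resolved steps were those from Cerk to Smpd1, Smpd1 to Sgpl1, Sgpl1 to Smpd4, Sphk2 to Smpd2, Sgpp1 to Sgms1 and Sgms1 to Sgms2. Cerk over Smpd1 had a log2 ratio of 1.73 ± 0.08 per kilobase (SD, n = 3), and 10.6% of all genes stood above Smpd1 in that fit. Smpd1 over Sgpl1 had 0.37 ± 0.06, with 14.5% of genes above Sgpl1. Sgpl1 over Smpd4 had 1.39 ± 0.03, with 33.3% of genes above Smpd4. By merged exon length those values place the first 3 enzymes apart from the rest. The step was narrower with principal transcripts, where Sgpl1 exceeded Sphk1 by a ratio of 1.35 and Smpd1 exceeded Sgpl1 by 1.19. Sphk2 over Smpd2 had 1.14 ± 0.05, with 50.7% of genes above Smpd2, and Sgpp1 over Sgms1 had 0.52 ± 0.11, with 58.6% above Sgms1. For Sgms1 over Sgms2, given above, 70.3% of genes stood above Sgms2.

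The unresolved steps lay within 2 clusters of like level. The log2 ratio of Smpd4 to Sphk1 was 0.09 ± 0.05 (limma adjusted p = 0.073, 95% interval -0.01 to 0.20; 34.5% of genes stood above Sphk1). For Sphk1 over Sphk2 it was the 0.03 given above, with 34.8% of genes above Sphk2. For Smpd2 over Sgpp1 it was 0.06 ± 0.20 (limma adjusted p = 0.526, 95% interval -0.12 to 0.23; 52.1% of genes above Sgpp1), and the sign was not the same in the 3 libraries. Without replicate 2, Smpd4 was called above Sphk1 (limma adjusted p = 0.0247). The middle of the order rests on the choice of length. With principal transcripts, which were added after the data were seen, Sphk1 stood above Smpd4 (log2 ratio of Smpd4 to Sphk1 -0.58), Smpd2 above Sgpp1 (0.77), and Sphk2 over Smpd2 was -0.11, without a call. With the longest transcripts Smpd4 stood above Sphk1 (0.71) and Smpd2 below Sgpp1 (-0.60). Sgpp1 over Sgms1 was -0.10 under both of these lengths, and the pair was then no longer told apart (limma adjusted p = 0.208). The leading places of Cerk, Smpd1 and Sgpl1, in that order, and the last place of Sgms2 were the same under all 3 lengths.

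**Figure D3:**
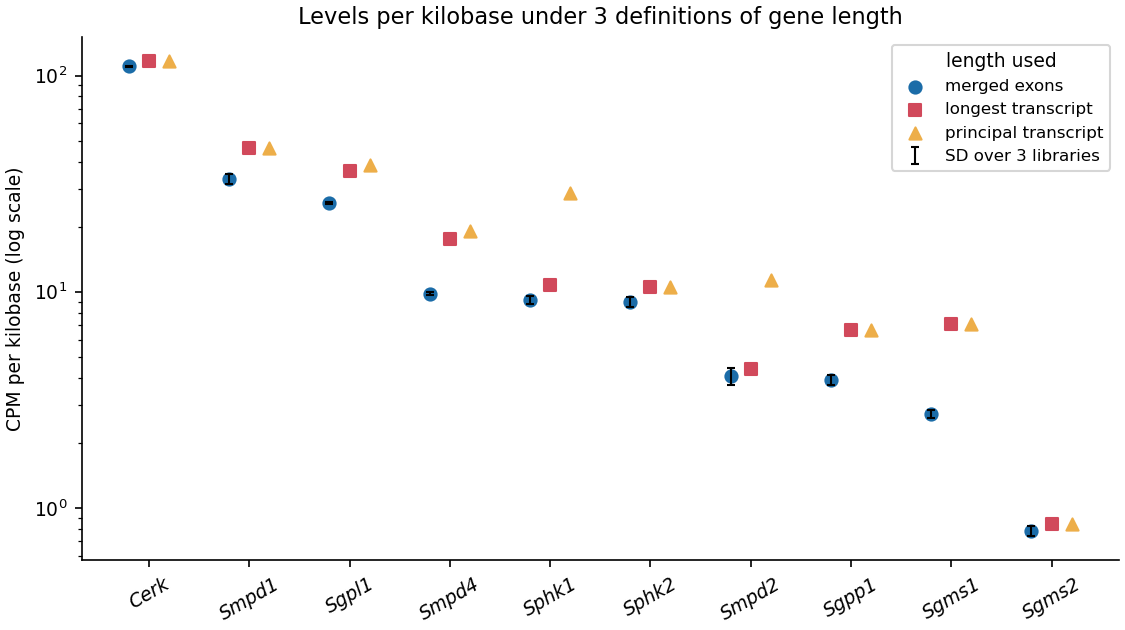
Mean CPM per kilobase (log axis) of the 10 enzymes, with gene length taken as merged exons (circles, with the SD over 3 libraries), the longest transcript (squares) or the longest principal transcript (triangles). Cerk, Smpd1 and Sgpl1 lead and Sgms2 is last under each length, while Sphk1 and Smpd2 move most.

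**Figure D4:**
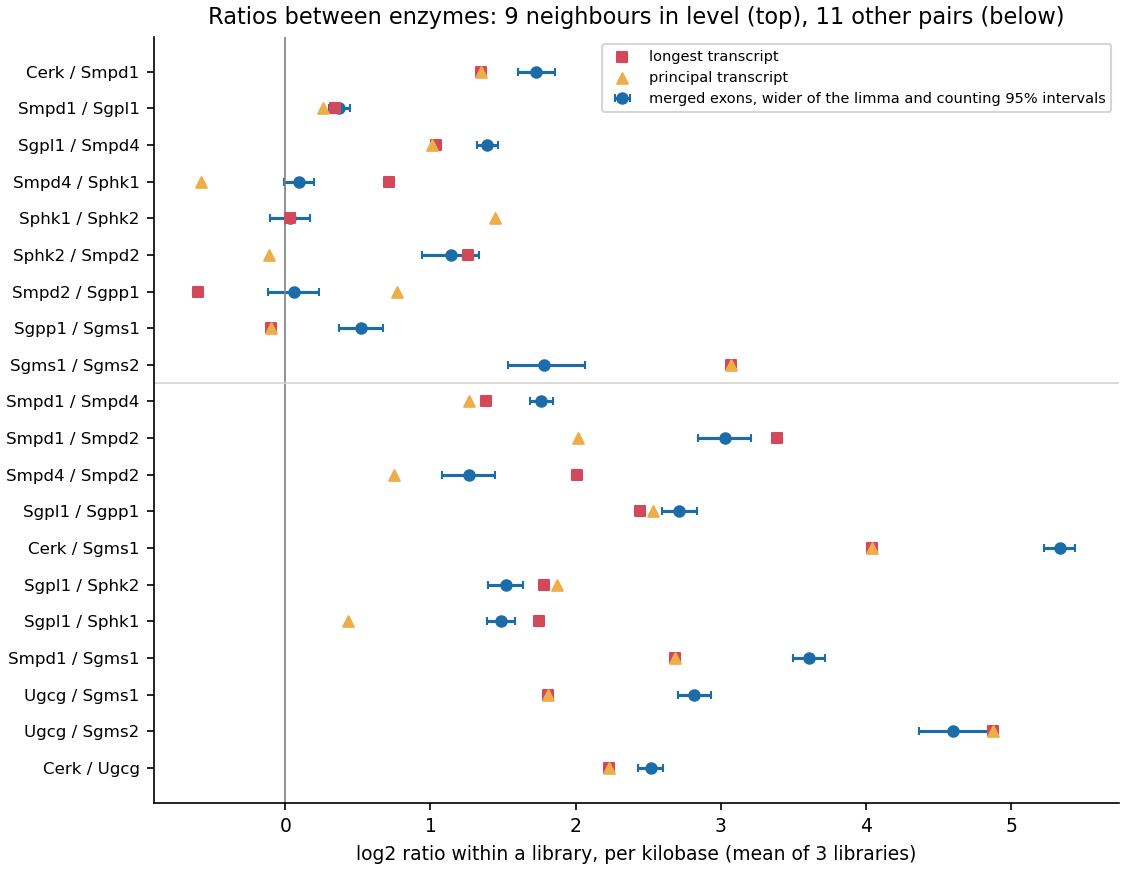
Log2 ratio per kilobase between enzymes within a library (mean of 3 libraries): 9 neighbours in level above the grey line and 11 other pairs below it. Circles use merged exons with the wider of the limma and the counting 95% interval, and squares and triangles use the longest and principal transcripts. The interval crosses 0 for Smpd4 over Sphk1, Sphk1 over Sphk2 and Smpd2 over Sgpp1.

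No variation between libraries beyond counting error was called for the 10 enzymes, which was also the common state of the genes tested. A Poisson deviance test asked whether a gene varied by more than counting error, and 3.31% of the 11000 genes averaging 10 or more counts were called. None of the 10 enzymes was called, and none had an unadjusted p under 0.05. The lowest was 0.0506 for Smpd1 (adjusted 0.336), whose replicate 2 was lower than the other 2 libraries. Smpd2 had the widest relative spread, with a coefficient of variation of 8.77% against 7.64% from counting alone and a highest to lowest ratio of 1.18. The unadjusted p of Smpd1 was 0.0432 with library totals in place of TMM factors, 0.0495 with DESeq2 size factors and 0.0181 without replicate 1, with adjusted values of 0.312, 0.333 and 0.322. Over all genes, the common biological coefficient of variation estimated by edgeR was 2.80%.

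Receptors and exporters of S1P were mostly scarce. Of 6 such genes measured, 2 were above 1 CPM by edgeR, 3 were below and 1 had no count. Over all genes with a count, 74.3% were called above and 20.2% below. The receptor gene S1pr2 had 80.2, 90.8 and 89.2 CPM in replicates 1, 2 and 3, and was the only receptor of the 4 measured that was called above 1 CPM. S1pr4 had 7 reads in all (0.248 ± 0.0607 CPM, edgeR adjusted p = 0.0022), S1pr3 had 2 reads (7.24e-04), and S1pr5 had none, which allows up to 0.106 CPM over the group. The exporter gene Spns2 had 2 reads in each library (edgeR adjusted p = 0.00147). Mfsd2b, the S1P exporter of red cells and platelets, had 1.84 ± 0.534 CPM and was called above (edgeR adjusted p = 0.00717), but not without replicate 1 or 2 (0.11 and 0.0838) or by DESeq2 (adjusted p = 0.598). DESeq2's Wald test called 0 of the 6 related genes below 1 CPM that edgeR called, here and in the lists that follow. S1pr1 was not analysed here.

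Other sphingomyelin genes ranged from well above 1 CPM to no count. Samd8, whose product is a relative of the sphingomyelin synthases that makes ceramide phosphoethanolamine, had 65.2 ± 2.999 CPM (fractional counts), which is 8.53 CPM per kilobase of merged exon, against 2.73 for Sgms1, or 9.59 against 7.13 with principal transcripts. Smpdl3a, a relative of acid sphingomyelinase, had 25.3 ± 0.232 CPM. The neutral sphingomyelinase gene Smpd3 had 1.71, 0.636 and 0.955 CPM and no call (edgeR adjusted p = 0.697). Smpdl3b had 1 read and was called below, and Smpd5 and Enpp7 had no count, which allows each up to 0.106 CPM over the group. Of the 6 genes of that list, 2 were above, 1 below, 1 without a call and 2 without a count. The shares over all genes with a count were 74.3% above and 20.2% below.

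Among other genes that remove S1P or its products, 4 of 5 were above 1 CPM, near the 74.3% of all genes with a count. Plpp2, a lipid phosphate phosphatase, had 236, 229 and 223 CPM in replicates 1, 2 and 3, and averaged 139 CPM per kilobase of merged exon, against 25.7 for Sgpl1. Aldh3a2, which oxidises the fatty aldehyde left by the lyase, had 44.6 ± 3.07 CPM, Plpp1 17.2 ± 1.09 CPM (fractional counts) and Plpp3 8.36 ± 1.61 CPM. Sgpp2, the paralog of Sgpp1, was without a call at 1.15 ± 0.0723 CPM (edgeR adjusted p = 0.5). Of 5 ceramidase genes, which supply sphingosine to the kinases, the lysosomal Asah1 led by CPM at 137 ± 2.75 CPM (fractional counts), Acer3 had 21.0 ± 0.737 CPM and Asah2 18.7 ± 1.77 CPM. Acer2, with 1 read in each library, and Acer1, with a summed estimated count of 0.8, were below 1 CPM.

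The measured genes on the lists named ceramide supply and ceramide transfer were all above 1 CPM. All 6 genes on the transfer list, which is not limited to carriers of ceramide, were called above. Its genes with the highest CPM, which takes no account of length, were Vapa at 197 ± 5.88 CPM, Vapb at 112 ± 4.40 CPM and Plekha8 at 57.9 ± 1.49 CPM. The ceramide transfer protein gene Col4a3bp, whose product carries ceramide to the Golgi for sphingomyelin synthesis, had 45.7 ± 1.90 CPM, which is 5.55 CPM per kilobase of merged exon, against 2.73 for Sgms1, or 16.7 against 7.13 with principal transcripts. All 9 measured genes on the supply list were called above. Besides enzymes that list holds the Ormdl regulators, and it holds no ceramide synthases. Its genes with the highest CPM were Sptlc2 at 329 ± 12.4 CPM, Degs1 at 182 ± 2.07 CPM and Ormdl2 at 62.0 ± 3.67 CPM (fractional counts). Degs2 had the lowest CPM at 1.87 ± 0.456 CPM and lost the call without replicate 1 or 3 (edgeR adjusted p = 0.0744 and 0.0579) or by DESeq2 (adjusted p = 0.582). Per kilobase of merged exon Degs1 stood at 70.3 CPM and Sptlc2 at 40.6 CPM. Over the 7 lists of related genes, 27 of 38 measured genes were above 1 CPM, 6 below, 2 without a call and 3 without a count, with a median of 28.9 CPM. Among the 35 with a count, 77.1% were above and 17.1% below, near the 74.3% and 20.2% of all genes. Sptlc3 and Sptssb were not analysed here. Spns2, S1pr3, Smpdl3b, Col4a3bp and Degs2 were named after their values were seen.

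**Figure D5:**
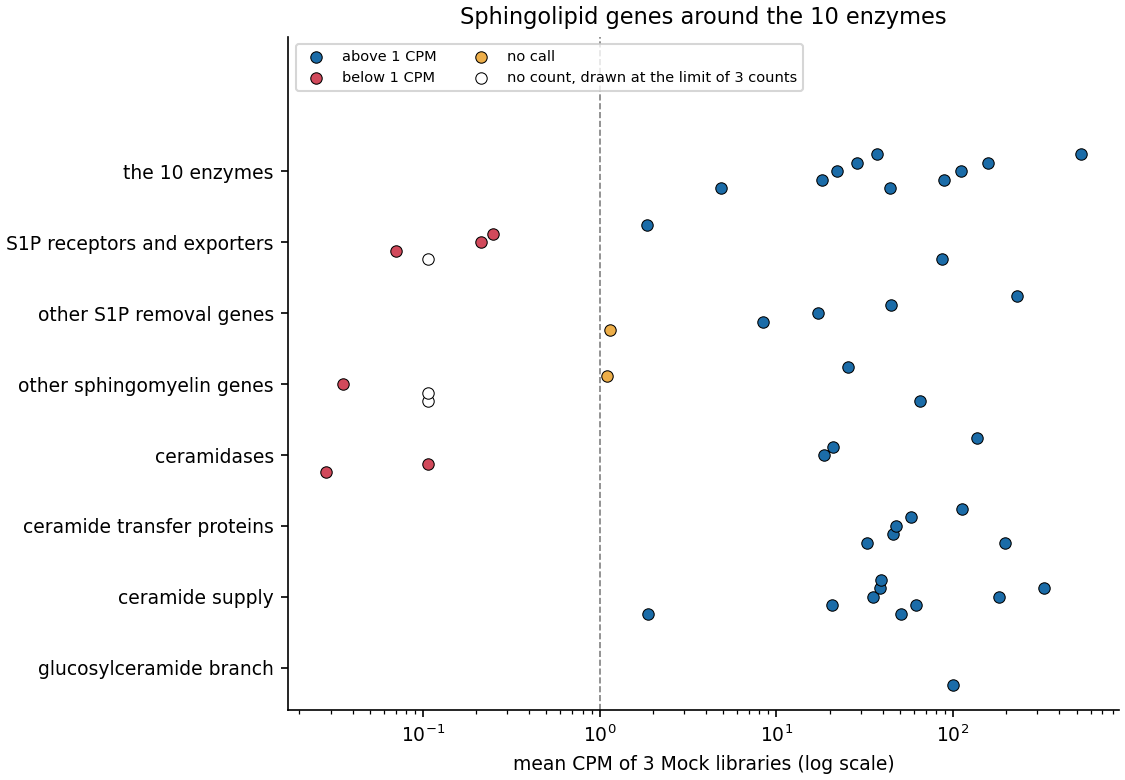
Mean CPM of the 3 Mock libraries (log axis) for the 10 enzymes and 7 lists of related genes, 1 point per gene (vertical offsets only separate points), coloured by the edgeR call against 1 CPM; genes with no count are drawn open at 0.106 CPM. The receptor and exporter list has 1 gene well above 1 CPM, S1pr2, while the transfer and supply lists lie wholly to the right of the dashed line.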

How the data were processed

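For each gene symbol the table that the authors deposited holds an estimated count in each of the 3 Mock libraries, neither normalized nor pooled. Per the submitters' processing notes, reads were placed on GRCm38.p6. The sources used here name no aligner, counter, annotation, filter or strand setting, so these are not given. Counts were rounded for every test, which changed values in 2270 rows (tolerance 0.005), Sphk2 among the 10 enzymes. CPM used totals times TMM factors (1.003, 0.998 and 0.999). Binomial intervals and the limit that a count of 0 allows (3 counts over the group) cover counting error only.

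Levels were tested against 1 CPM with edgeR 4.0.16 (quasi-likelihood F, intercept-only model, offsets set to 1 CPM) and ratios with limma 3.58.1 (0.5 added to each count, variance trend on mean log2 count, 1 fit per denominator), in R 4.3.3, both with Benjamini-Hochberg adjustment over all genes. All genes of a ratio fit share the error of the denominator. Exon lengths and positions came from GENCODE M21, by symbol; merged exons join all annotated transcripts. DESeq2 1.42.0 was an alternative. The tests were checked on simulated counts, with the same dispersion for all genes in the level and ratio checks. For ratios the check set a bound on missed differences and none on false calls. Sequences are from RefSeq, and all 10 genes matched. Figures used matplotlib 3.10.9.

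The 10 genes, the lists and the motifs were chosen with earlier results of these data known. The text names each of the 10 enzymes, the 3 most abundant genes and those without a count in each other list, and all genes of lists of 5 or fewer. Genes of similar pattern were not sought, since 3 libraries of 1 condition give no pattern.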

Additional observations from a re-analysis of the deposited data

How the results depend on the processing

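All 10 enzymes were above 1 CPM under every alternative tried, which were library totals, DESeq2 size factors, genes with at least 10 counts, DESeq2's Wald test, the exact Poisson test, levels of 0.5 and 2 CPM, and each replicate left out. None was called variable between libraries with library totals, DESeq2 size factors, a mean of at least 50 counts or any replicate left out. Of the related genes, 25 to 29 were above the level under these settings. The 6 related genes below 1 CPM became 0 among genes with at least 10 counts, since each has fewer. They also became 0 by DESeq2's Wald test, which put 0 genes of the whole table below that level, whether or not p was adjusted. Otherwise 4 to 8 were below. Against 2 CPM the log2 distance turned negative for genes lying between the levels: Mfsd2b -0.13, Sgpp2 -0.82, Smpd3 -0.87 and Degs2 -0.10. With a replicate left out, Smpd3 ranged over -0.35 to 0.39 against 1 CPM.

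Length moved the ratios most. By reads only, Smpd1 over Sgpl1 was -0.51, Smpd2 over Sgpp1 -0.28 and Sgpp1 over Sgms1 -0.38. With the longest transcript Smpd2 over Sgpp1 was -0.60 and Sgpp1 over Sgms1 -0.10. With the principal transcript, added after the data were seen, Smpd4 over Sphk1 was -0.58, Sphk2 over Smpd2 -0.11 and Sgpp1 over Sgms1 -0.10. With a replicate left out, Sphk1 over Sphk2 ranged over -0.0052 to 0.081 (lowest without replicate 2), and Smpd2 over Sgpp1 over -0.042 to 0.15 (lowest without replicate 1). In either direction all 9 neighbours were told apart by reads only, 7 with the longest and 7 with the principal transcript. Of the 6 told apart by merged exons, 4, 5 and 4 kept their call and direction by reads only and with the longest and principal transcripts. All 6 kept both with any replicate left out, a prior count of 2, genes with at least 10 counts, and an exact binomial test added later. Per kilobase the share of Sgms2 was 22.3% and that of Sphk1 50.5%. No paired analysis was possible because there is only 1 group.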
